A study of Mus musculus with 40 samples.

Results

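The net response of *Cpeb4*-/- macrophages to bacterial lipopolysaccharide (LPS) was read by setting 4 libraries of cells exposed to LPS for 9 hr against 4 libraries of untreated cells from the same 4 animals. These 8 libraries were picked by their labels out of 40 in the series, and each 9 hr library was paired with the untreated library of its animal (animals 2, 3, 55 and 62). Of the 27179 genes in the expression table, the 13109 whose mean value over the 8 libraries was at least log2 of 5 were tested. The other 14070 genes were left out as too weakly expressed, and 6395 of them were at 0 in all 8 libraries.

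The series follows WT and *Cpeb4*-/- bone marrow-derived macrophages (BMDMs) through LPS stimulation, to ask what the RNA-binding protein CPEB4 does in that response. The knockout is a full one (CPEB4-KO in the labels), so all cells of the animal carry it. The animals were male, on a mixed C57BL/6J and 129 background, and adult. M-CSF for the growth of macrophages from bone marrow came from medium conditioned by L cells. The untreated group (n = 4) received no LPS, and the 9 hr group (n = 4) received 10 ng/ml. The labels name 1 untreated state per animal, so LPS and the further 9 hr in culture cannot be told apart. Animals 3 and 62 were in batch 1 and animals 2 and 55 in batch 2, with both libraries of an animal in the same batch. WT BMDMs (4 animals, 8 libraries) carried the same treatment and were used only to test whether the net change differed between genotypes.

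Macrophages sense LPS through TLR4, which signals through MyD88 to NF-kB and the MAP kinases and through TRIF to IRF3 and interferon beta. NF-kB turns on cytokines, chemokines and its own inhibitors. Interferon beta is secreted, acts back on the cell through JAK and STAT proteins, and induces a second set of genes through the interferon-stimulated response element (ISRE). By 9 hr the first burst of transcription is normally past, feedback inhibitors and mRNA decay factors have accumulated, and metabolism and the cell cycle have been reset. CPEB4 binds cytoplasmic polyadenylation elements in mRNAs and can lengthen their poly(A) tails.

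A few promoter sequences of genes described later are printed here, because they hold the letters through which these pathways are known to act. Apart from *Saa3* and *Tarm1* they were chosen after the values had been seen. Each stretch is 30 bases of the reference (RefSeq, build GRCm38.p6), read 5′ to 3′ on the strand of the gene, with the letters that matched the motif in capitals. ISRE letters (GAAANNGAA on either strand) are shown for interferon-induced genes:

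Isg15 (chr4:156200865-156200894, minus strand): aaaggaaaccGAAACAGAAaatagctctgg
Ifit1 (chr19:34640795-34640824, plus strand): cagtctcagtTTCAGTTTCtcactgctgac
Rsad2 (chr12:26456552-26456581, minus strand): tggtccaactTTCATTTTCagaaaacagaa
Gbp2 (chr3:142620595-142620624, plus strand): ctcttttagtTTCACTTTCactgtcttaag
Irgm1 (chr11:48871425-48871454, minus strand): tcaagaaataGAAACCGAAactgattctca

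The NF-kB letters (GGANTTTCC or GGANTTCCC on either strand) are shown for inhibitors of NF-kB, chemokines and a cytokine. Of 17 inflammatory cytokine genes with a promoter at hand, 5 held these letters, *Il6* among them. *Il1a*, *Il1b*, *Tnf* and *Il12b* did not hold them. The stretches were:

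Nfkbia (chr12:55492657-55492686, minus strand): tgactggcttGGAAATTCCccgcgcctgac
Tnfaip3 (chr10:19015415-19015444, minus strand): tcacgtgactGGAATTTCCatcggaaatcc
Cxcl1 (chr5:90891165-90891194, plus strand): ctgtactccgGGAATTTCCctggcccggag
Cxcl2 (chr5:90903793-90903822, plus strand): ctgagctcagGGAATTTCCctggtccccgg
Cxcl10 (chr5:92348972-92349001, minus strand): ggtttacaggGGACTTCCCtcgggttgcgg
Il6 (chr5:30013061-30013090, plus strand): atcaaatgtgGGATTTTCCcatgagtctca

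E2F letters (TTTCCCGC or TTTGGCGC on either strand) are shown for DNA replication genes. None of the 12 largest falls held E2F letters (9 of them had a promoter at hand). The preset S phase representatives *Mcm2*, *Pcna*, *Ccne1* and *Rrm2* held none either. ISRE letters are shown for the only 2 of the 12 largest rises that held ISRE or NF-kB letters (9 of the 12 had a promoter at hand):

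Mcm7 (chr5:138172030-138172059, minus strand, E2F): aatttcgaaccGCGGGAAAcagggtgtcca
Pola1 (chrX:93632275-93632304, minus strand, E2F): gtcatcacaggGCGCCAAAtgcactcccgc
Cdc6 (chr11:98908002-98908031, plus strand, E2F): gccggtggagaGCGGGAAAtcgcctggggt
Saa3 (chr7:46715782-46715811, minus strand, ISRE): gttatcttctGAAAGAGAAattatgggtaa
Tarm1 (chr7:3502676-3502705, minus strand, ISRE): cctgaaatttGAAACGGAAgaggaccaagt

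Over whole promoters (250 bases before to 50 after the start), the ISRE letters were in 14.4% of the 1120 promoters of genes that rose by at least 1, in 5.98% of the 1220 promoters of genes that fell by at least 1, and in 7.31% of the 12837 promoters of all genes tested. NF-kB letters were in 5.62%, 2.21% and 2.9% of the same promoters. AP-1 letters (TGANTCA) were in 9.91%, 5.9% and 5.4%, and CRE letters (TGACGTCA) in 2.14%, 1.89% and 3.01%. For E2F the order was the other way, with 1.16% in genes that rose, 4.92% in genes that fell and 2.9% in all genes tested. Over every promoter in the reference table (32851) the shares were 8.56% for ISRE, 2.47% for NF-kB, 7.81% for AP-1, 1.79% for CRE and 1.56% for E2F. These shares describe letters in a window and carry no test, and promoters were at hand for 871 of the 1140 genes that rose by at least 1 and 946 of the 1249 that fell by at least 1.

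The deposited values are rlog values, a log2 scale corrected for library size that pulls weak values toward the mean of their gene. Differences below are therefore log2 differences of rlog (9 hr minus untreated) that understate the change of weakly expressed genes, and the values of a gene with few reads lie closer together than its reads would. Libraries of the same group correlated with r between 0.993 and 0.998 over genes, and no pair was identical. The table gives no read counts, so the depth of each library is unknown here, and the precision of a change is given by its standard error over 4 animals (median 0.068). All 9 macrophage markers were tested, and their summed level (on the linear scale of rlog) lay between 426091.1 and 505319.0 in untreated cells and between 521376.9 and 600724.2 at 9 hr. Of the 9, 5 rose, from *Spi1* (0.49) to *Fcgr1* (1.95), 3 fell, *Csf1r*, the M-CSF receptor, by −0.16, *Mertk* by −0.37 and *Cd68* by −0.42, and *Lyz2* (−0.10) did not pass the test. Their median change of 0.49 turned to −0.08 after quantile normalization. Some markers of T cells (*Cd3e*, *Cd3d*, *Cd3g*, *Cd8a*), B cells (*Cd79a*, *Ms4a1*, *Pax5*), NK cells (*Ncr1*, *Prf1*) and neutrophils (*Ly6g*, *Mpo*, *Elane*) were under the filter on low values. Others passed it, 4 of 8 for T cells, 2 of 7 for B cells, 1 of 7 for NK cells and 5 of 13 for neutrophils. Their levels are given further below.

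The gene targeted in these animals, *Cpeb4*, lies on chromosome 11 from 31870104 to 31935635 (GRCm38). In the libraries labelled knockout, *Cpeb4* was at 7.42, 7.87, 6.88 and 7.74 in untreated cells of animals 2, 3, 55 and 62 and at 7.87, 9.28, 8.83 and 9.02 at 9 hr. All 4 animals rose, and the groups touched at animal 2, whose 9 hr value was no higher than the untreated value of animal 3. The rise was 1.27 (standard error 0.18, limma adjusted p = 0.000108), beside 1.34 in WT, and the difference between the genotypes was −0.07 (standard error 0.28, limma adjusted p = 0.951). The value sums reads over the whole gene, and the WT libraries, at 7.03 to 8.13 untreated and 8.89 to 9.41 at 9 hr, overlapped the knockout at both times. Transcripts of the deleted allele that keep some exons cannot be told from intact ones, so *Cpeb4* does not check the genotype labels here.

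Of the 13109 genes tested, 4727 (36.1%) were higher and 4806 (36.7%) lower after 9 hr of LPS at an adjusted p under 0.05 (limma with the animal as a block, Benjamini-Hochberg). Small differences are included in these counts, so a size rule was added. With a difference of at least 1, 1140 genes (8.7%) were higher and 1249 (9.53%) lower. The 4 values at 9 hr lay all above the 4 untreated values in 31.4% of genes and all below them in 31.4%. The rises reached further than the falls: 104 genes rose by at least 3 and 16 fell by at least 3, and 7 rose by at least 5 where none fell by as much. The median change over all genes tested was −0.01 and its median size 0.382. Of the 4552 genes whose mean rlog reached 10, 607 changed by at least 1 and 751 by less than 0.1.

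**Figure D1:**
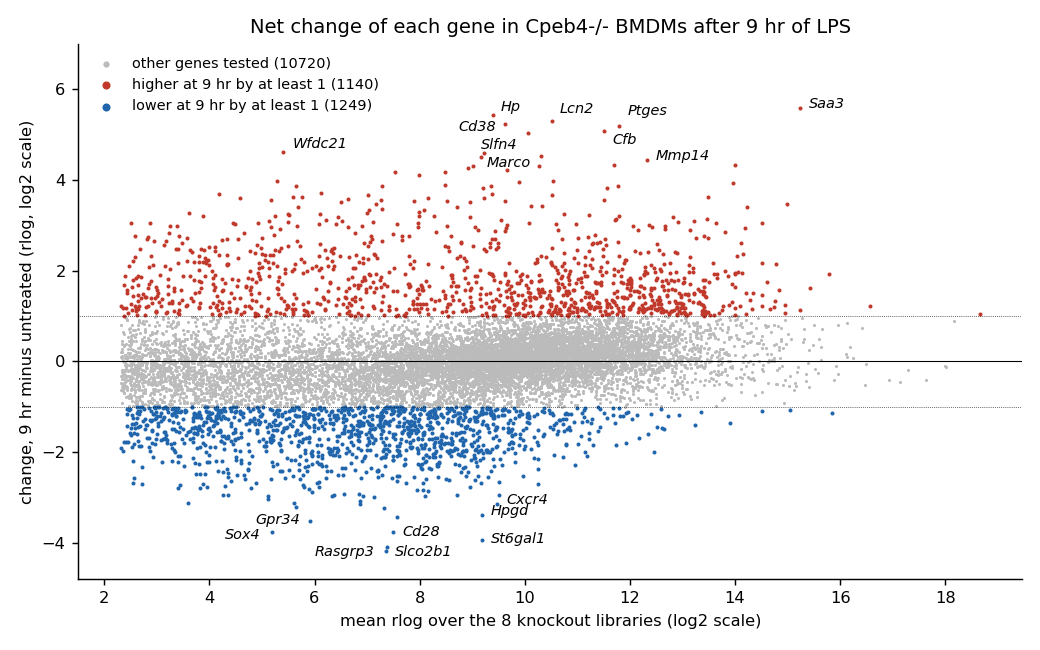
Change (9 hr minus untreated, rlog, y axis) against mean rlog over the 8 *Cpeb4*-/- libraries (x axis) for the 13109 genes tested. Red points are the 1140 genes higher by at least 1 and blue points the 1249 lower by at least 1 at an adjusted p under 0.05. Rises extend to 5.59 (*Saa3*) and falls to −4.18 (*Slco2b1*), and the 12 largest falls all have a mean under 10.

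The 4 animals changed alike in size. Over the genes that rose by at least 1, the median rise was 1.53 in animal 2, 1.69 in animal 3, 1.67 in animal 55 and 1.60 in animal 62. For the genes that fell by at least 1, the medians were −1.49, −1.54, −1.53 and −1.52. Across genes, the changes of 2 animals correlated with r between 0.924 and 0.966, and the 3 lowest of these 6 values were those of animal 2. Genes are not independent replicates, so these correlations are descriptions.

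The largest rises, picked among genes whose untreated and 9 hr values did not overlap, were in secreted defence and acute-phase proteins. *Saa3*, an acute-phase serum amyloid A protein, was at 12.45, 12.42, 12.44 and 12.42 in untreated cells of animals 2, 3, 55 and 62 and at 18.51, 17.85, 18.01 and 17.74 at 9 hr. Its rise of 5.59 (standard error 0.10, limma adjusted p = 5.39e-11) was the largest of all genes tested. *Hp*, which encodes the haemoglobin-binding protein haptoglobin, went from 6.64, 6.69, 6.76 and 6.61 to 12.40, 11.97, 11.99 and 12.10, a rise of 5.44. *Lcn2*, whose product lipocalin-2 withholds iron from bacteria by binding their siderophores, went from 7.89, 7.87, 7.85 and 7.88 to 13.21, 13.07, 13.31 and 13.13, a rise of 5.31. In all 3 genes every 9 hr value lay far above every untreated one, and animal 2 was the highest at 9 hr for *Saa3* and *Hp*. Untreated values of *Saa3* and *Lcn2* were near-constant (standard deviations 0.015 and 0.019), of the kind that rlog can give to few reads. Their untreated levels and the size of their rises are therefore uncertain. *Wfdc21* rose by 4.62.

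Other leading rises were in an enzyme of lipid mediator synthesis, complement, a nucleotide-consuming enzyme and surface receptors. *Ptges*, the inducible prostaglandin E synthase, was at 9.24, 9.17, 9.16 and 9.18 in untreated cells and at 14.38, 14.38, 14.34 and 14.42 at 9 hr (rise 5.19, standard error 0.04, limma adjusted p = 1.18e-12). *Cfb*, a component of the alternative complement pathway, went from 9.01, 8.92, 9.03 and 8.91 to 13.97, 14.20, 14.14 and 13.85. *Cd38*, an ectoenzyme that consumes NAD, went from 7.09, 7.04, 6.90 and 6.97 to 12.11, 12.51, 12.04 and 12.33. In all 3 genes the animals lay close together at both times. Since rlog pulls weak values together, closeness in untreated cells need not mean that their reads were as close. *Marco*, a scavenger receptor for bacteria, showed the widest spread of the leading rises, from 8.22, 7.91, 8.18 and 7.89 to 13.05, 12.73, 12.63 and 11.87. *Slfn4* of the Schlafen family (5.04), *Serpinb2*, an inhibitor of plasminogen activators (4.60), the leukocyte receptor *Tarm1* (4.50) and the membrane-bound metalloproteinase *Mmp14* (4.44) complete the 12 largest rises.

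The largest falls, picked by the same rule as the rises, were in genes of several kinds, receptors and enzymes among them. *Slco2b1*, an organic anion transporter, was at 9.48, 9.26, 9.27 and 9.79 in untreated cells of animals 2, 3, 55 and 62 and at 5.46, 5.48, 4.94 and 5.20 at 9 hr. Its fall of −4.18 (standard error 0.12, limma adjusted p = 6.81e-10) was the largest. *Rasgrp3*, an exchange factor that activates Ras and Rap proteins, went from 9.23, 9.59, 9.25 and 9.62 to 5.44, 5.53, 5.07 and 5.26. The sialyltransferase gene *St6gal1* went from 11.11, 11.07, 11.14 and 11.26 to 7.56, 7.17, 7.10 and 7.00. Animal 2 kept the highest 9 hr value of *St6gal1*, and no 9 hr value came near an untreated one. *Cxcr4*, the receptor of the chemokine CXCL12 that retains cells in bone marrow, went from 11.13, 11.12, 10.98 and 10.97 to 8.27, 7.75, 7.72 and 7.87, a fall of −3.15. *Hpgd*, whose product inactivates prostaglandins, fell by −3.38 and *Il1rl1*, the receptor of IL-33, by −3.21. The others were *Cd28* (−3.77), known as a costimulatory receptor of T cells, the transcription factor gene *Sox4* (−3.76), the orphan receptor gene *Gpr34* (−3.52), *Zfyve28* (−3.43), *Ankle1* (−3.23) and *Gprc5c* (−3.16).

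**Figure D2:**
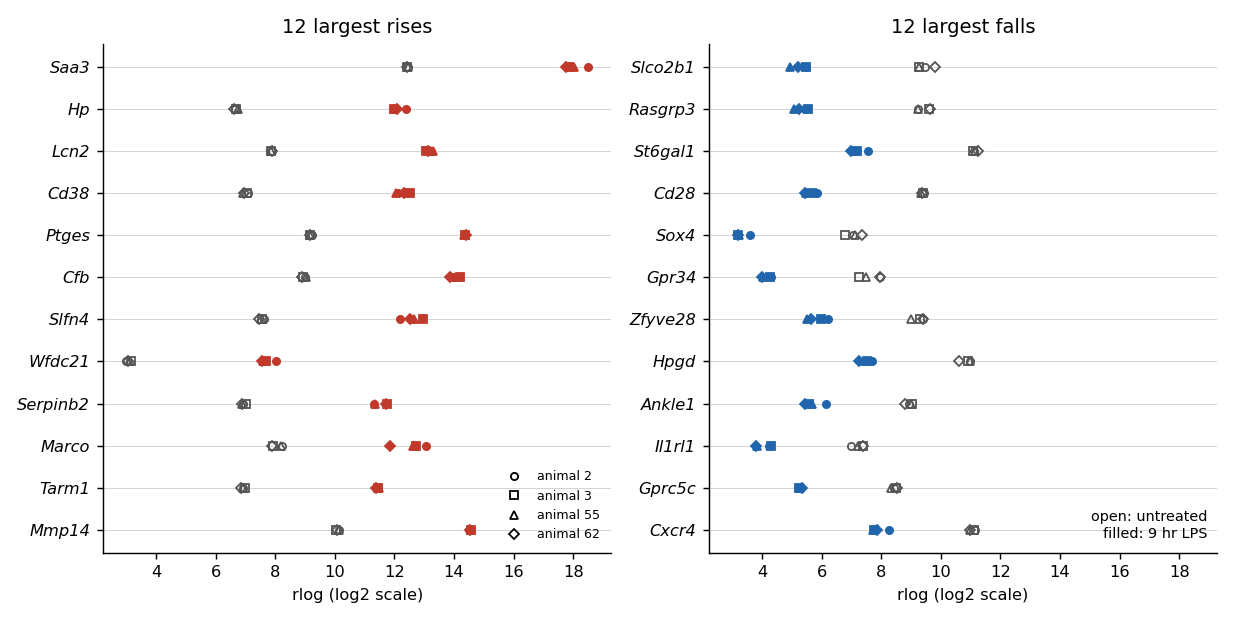
The rlog value (x axis, log2 scale) of the 12 largest rises (left, filled red at 9 hr) and the 12 largest falls (right, filled blue at 9 hr) in each of the 4 *Cpeb4*-/- animals, with open symbols for untreated cells and 1 symbol shape per animal. The 24 genes were picked among those whose untreated and 9 hr values do not overlap. *Marco*, from 11.87 to 13.05, has the widest 9 hr range of the rises.

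The following groups are hand-written lists of genes of a process. They were written with earlier results of these data known, and many hold genes that LPS is known to induce, so their counts describe the libraries and carry no test of the list. The background for each count is the share of all genes tested: 36.1% higher, 36.7% lower, 8.7% higher by at least 1 and 9.53% lower by at least 1.

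Cytokines of the inflammatory response were higher at 9 hr in nearly the whole list: 24 of 25 rose, 14 of them by at least 1, none fell, and the median change was 1.30 against −0.01 over all genes. *Il1b*, the precursor of IL-1 beta, was at 12.35, 12.49, 12.36 and 12.34 in untreated cells and at 15.13, 15.51, 15.19 and 15.10 at 9 hr (rise 2.85, standard error 0.05, limma adjusted p = 7.33e-11). *Il6* went from 7.72, 7.77, 7.75 and 7.72 to 9.93, 10.92, 10.32 and 9.99, so animal 3 stood above the others at 9 hr. *Tnf* went from 12.47, 12.74, 12.50 and 12.45 to 13.92, 13.94, 13.89 and 13.61, a smaller rise of 1.30. The largest rise of the list was that of *Csf3*, the gene of granulocyte colony-stimulating factor (3.71), followed by *Il12a*, a subunit of IL-12 (3.02). *Lif* did not pass the test, with 0.39, and *Ifnb1*, the gene of interferon beta, rose by 0.75.

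Chemokine genes rose with a few exceptions. Of 14 CC chemokines tested, 11 rose, each by more than 1, and 1 fell, with a median change of 2.08. *Ccl5*, which draws T cells and monocytes, was at 11.86, 11.81, 11.88 and 11.83 in untreated cells and at 16.32, 16.07, 16.24 and 16.05 at 9 hr (rise 4.32, standard error 0.05, limma adjusted p = 6.62e-12). *Ccl7* rose by 2.79, *Ccl22* by 2.69 and *Ccl2*, the main attractant of monocytes, by 1.92, while *Ccl27a* fell by −0.61. Of 10 CXC chemokines, 9 rose, 6 of them by at least 1, and *Cxcl14* fell by −1.01. *Cxcl10*, which attracts cells with the receptor CXCR3, went from 12.83, 12.77, 12.86 and 12.75 to 15.37, 15.60, 15.51 and 15.14. *Cxcl1* and *Cxcl2*, which attract neutrophils, rose by 1.01 and 1.24. Untreated cells of animal 3 had the highest value of both, 9.68 for *Cxcl1* and 11.94 for *Cxcl2*, against 8.98 to 9.03 and 11.47 to 11.54 in the other 3 animals. The NF-kB letters were found in the promoters of 4 of the 8 CXC chemokine genes that had one at hand, *Cxcl1*, *Cxcl2* and *Cxcl10* among them.

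Receptors for chemoattractants went both ways (10 rose and 5 fell of 16). The formyl peptide receptors *Fpr1* and *Fpr2*, which sense bacterial peptides, rose by 4.32 and 3.66. Against these, *Cxcr4* fell by −3.15, *Cxcr3* by −2.23, *Gpr183*, a receptor of oxysterols, by −2.22 and *Ccr2*, the receptor of CCL2, by −1.17.

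Type I interferon-stimulated genes rose without exception: all 36 tested were higher, 35 of them by at least 1, with a median of 2.13. *Isg15*, a ubiquitin-like modifier, was at 11.24, 11.11, 11.40 and 11.13 in untreated cells and at 14.67, 14.27, 14.47 and 14.20 at 9 hr (rise 3.19, standard error 0.06, limma adjusted p = 1.02e-10). *Ifit1*, which binds viral RNA, went from 11.70, 11.60, 11.84 and 11.62 to 14.61, 14.67, 14.61 and 14.46. *Rsad2*, which encodes the antiviral protein viperin, went from 13.02, 12.89, 13.11 and 12.90 to 15.96, 16.13, 16.18 and 15.85. Across these genes the untreated cells of animal 55 held the highest values, and the 9 hr values of the animals lay within 0.5 of one another. The smallest rise in the list was that of *Trim25* (0.75), a ubiquitin ligase of the RNA-sensing pathway, and the largest that of *Ifi44* (3.54). ISRE letters were in 48.4% of the 31 promoters of these genes at hand (14 of 27 genes).

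The interferon-inducible GTPases of the GBP and IRG families, which attack the vacuoles of intracellular microbes, had the highest median of the lists of genes of a process, 2.58. All but *Gbp8* (−0.02) of the 17 tested rose, each by more than 1. *Gbp2* went from 11.69, 11.60, 11.74 and 11.64 to 15.18, 15.39, 15.40 and 15.23, and *Gbp6* rose by 3.89, *Gbp5* by 3.00 and *Irgm1* by 1.76. Members of these families resemble one another closely, so how reads were split among *Gbp2*, *Gbp6*, *Gbp9*, *Tgtp1* and *Tgtp2* is uncertain. ISRE letters were in the promoters of 9 of the 10 genes that had one at hand. The STAT and JAK genes that carry the interferon signal rose in 8 of 11 cases, *Jak2* by 2.38 and *Stat2* by 2.11, and *Stat4* fell by −0.70. Among the IRF factors, *Irf1* rose by 1.17 and *Irf4* fell by −2.26.

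NF-kB subunits and their inhibitors rose together. All 5 subunit genes were higher, *Nfkb2* by 1.42, *Nfkb1* by 1.03 and *Rela* by 0.31, although *Rela* turned to −0.07 (not called) after quantile normalization. Of the 15 inhibitors and partners of A20, 13 rose, 7 by at least 1, and *Nfkbid* (−0.27) and *Otulin* (−0.51) fell. *Nfkbia*, which encodes the inhibitor that holds NF-kB in the cytoplasm, was at 13.43, 13.43, 13.53 and 13.43 in untreated cells and at 15.13, 14.87, 14.96 and 14.86 at 9 hr. *Tnfaip3*, the gene of the ubiquitin-editing enzyme A20, went from 12.35, 12.44, 12.30 and 12.35 to 13.69, 13.94, 13.85 and 13.84. The groups lay more than 1 apart in both genes. The NF-kB letters were in the promoters of 7 of 12 genes of the list.

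Anti-inflammatory factors and feedback regulators were higher in 14 of 20 cases, 11 by at least 1, and none fell (median 1.29). *Il1rn*, whose product blocks the IL-1 receptor, was at 12.04, 11.99, 12.06 and 11.91 in untreated cells and at 15.77, 16.03, 16.06 and 15.85 at 9 hr (rise 3.93, standard error 0.06, limma adjusted p = 2.2e-11). *Acod1*, which makes itaconate, went from 13.25, 13.30, 13.25 and 13.23 to 16.60, 16.89, 16.80 and 16.60. *Socs3* and *Socs1*, inhibitors of cytokine receptor signalling, rose by 2.96 and 2.87. *Il10*, which encodes an anti-inflammatory cytokine, was among the 6 genes not called. It was at 9.03, 8.77, 8.97 and 8.85 in untreated cells and at 9.09, 8.83, 9.03 and 8.81 at 9 hr, overlapping throughout, with a change of 0.04 (standard error 0.06, limma adjusted p = 0.571).

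RNA-binding proteins and decay factors for AU-rich and cytoplasmic polyadenylation elements split much as all genes tested did (36.1% higher and 36.7% lower). Of 19, 7 were higher and 6 lower, with a median of 0.07 that turned to −0.10 after quantile normalization. *Zfp36*, the gene of tristetraprolin, which directs AU-rich mRNAs to decay, went from 13.15, 13.15, 13.24 and 13.21 to 14.14, 13.97, 14.08 and 14.08, a rise of 0.88. Its relatives fell: *Zfp36l1* went from 11.43, 11.33, 11.41 and 11.55 to 9.13, 8.99, 8.89 and 9.21 (−2.38), and *Zfp36l2* fell by −1.18. *Arid5a* and *Zc3h12c*, which act on cytokine mRNAs, rose by 1.80 and 1.40. Of the CPEB paralogs, *Cpeb1* fell by −1.71 and *Cpeb3* by −0.28, and *Cpeb2* changed by 0.10 without passing the test. Deadenylases and their adaptors moved little, with a median of 0.11 (−0.04 after quantile normalization) and 1 gene (*Xrn1*, the cytoplasmic exonuclease, at 1.11) past 1 among 26.

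Of 18 genes of the LPS receptor and its adaptors 13 rose, 3 of them by at least 1, and 3 fell. *Tlr4* fell by −0.31 and its co-receptor gene *Cd14* rose by 0.96, from 14.73 to 14.97 in untreated cells to 15.72 to 15.85 at 9 hr. *Irak3*, the inhibitory member of the IRAK kinases, rose by 2.47, *Irak2* by 1.27 and *Myd88* by 1.17. Of the other Toll-like receptors, *Tlr3*, *Tlr1* and *Tlr2* rose by 1.54, 1.31 and 1.12, and *Tlr9* and *Tlr13* fell by −0.73 and −0.59. Dual-specificity phosphatases, which switch off MAP kinases, split into 7 higher and 7 lower of 17, near the shares of all genes tested. *Dusp16* was at 1.51, *Dusp2* at 1.42 and *Dusp1* at 1.28 against *Dusp22* at −1.85.

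Presentation of antigen on MHC class I rose as a whole and MHC class II did not. All 19 class I genes were higher, 11 by at least 1 (median 1.18), led by the transactivator *Nlrc5* (1.91), the peptide transporter *Tap1* (1.79) and the proteasome activator *Psme2* (1.79). Among 38 proteasome subunits 34 rose, 6 by at least 1, the immunoproteasome subunits *Psmb10*, *Psmb8* and *Psmb9* (1.57, 1.48 and 1.28) among these 6, and *Psma8* fell by −0.46. For class II, 5 rose and 5 fell of 14, near the shares of all genes tested. *Ciita*, the master transactivator of class II, went from 8.29, 8.50, 8.27 and 8.48 to 6.31, 6.26, 6.33 and 6.45. Of 14 costimulatory and checkpoint genes 7 rose and 6 fell. *Cd274*, the gene of PD-L1 (2.92), *Cd40* (2.44), *Pdcd1lg2* (1.82) and *Cd86* (1.72) rose, and *Cd80* (−0.54) and *Havcr2* (−2.43) fell.

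Inducible enzymes of arginine metabolism rose, in a list with 8 of 16 genes higher and 3 lower. *Nos2*, the inducible nitric oxide synthase, was at 8.12, 8.12, 8.12 and 8.14 in untreated cells, which is the near-constant value that rlog gives to very few reads, and at 11.97, 12.90, 12.58 and 12.24 at 9 hr. The arginine transporter gene *Slc7a2* rose by 4.32, *Ass1*, which regenerates arginine, by 3.51, *Arg1* by 3.62 and *Arg2* by 2.83. Of the polyamine enzymes, *Odc1* fell by −0.16 and *Sms* by −0.81.

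Genes of lipid mediator synthesis went both ways. Next to *Ptges*, *Ptgs2* (cyclooxygenase-2) went from 10.77, 10.89, 10.77 and 10.77 to 12.63, 13.44, 13.09 and 12.94, and the phospholipase gene *Pla2g4a* rose by 1.91. The constitutive cyclooxygenase gene *Ptgs1* went the other way, from 9.18, 9.21, 9.25 and 9.10 to 6.91, 7.00, 6.93 and 6.85. *Alox5*, the first enzyme of leukotriene synthesis, fell from 7.51, 7.54, 7.42 and 7.43 to 4.78, 4.87, 4.74 and 4.42, along with *Ltc4s* (−1.78), *Alox5ap* (−1.27) and *Lta4h* (−1.11). With the fall of *Hpgd*, 8 of 20 genes of the list were higher and 11 lower, with a median of −0.33.

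Glycolysis and glucose transport rose in 19 of 23 genes, 9 by at least 1, with a median of 0.84. *Pfkfb3*, which makes the activator of phosphofructokinase, was at 10.74, 10.71, 10.68 and 10.72 in untreated cells and at 13.26, 13.74, 13.64 and 13.77 at 9 hr (rise 2.89, standard error 0.08, limma adjusted p = 6.43e-10). The glucose transporter gene *Slc2a1* rose by 1.98, the lactate transporter gene *Slc16a3* by 2.17 and the hexokinase gene *Hk2* by 1.72, while *Slc2a3*, another glucose transporter, fell from 8.22 to 8.34 in untreated cells to 6.16 to 6.49 at 9 hr. *Hif1a*, the oxygen-regulated subunit of HIF-1, went from 11.52, 11.65, 11.59 and 11.60 to 13.11, 13.79, 13.61 and 13.80, with animal 2 the lowest at both times. Among 24 HIF subunits and other HIF targets 16 rose and 6 fell (median 0.76), *Edn1* by 2.90, *Egln3*, an oxygen sensor, by 2.48 and *Bnip3*, a mitophagy receptor, by 1.92. *Vegfa*, a classical HIF target, fell by −0.47 and *Epas1*, which encodes HIF-2 alpha, by −1.26.

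The mitochondrial lists showed little net movement. Of 70 oxidative phosphorylation subunits 9 were higher and 13 lower, 48 did not pass the test, none changed by 1 or more, and the median was −0.07. Among 23 tricarboxylic acid cycle enzymes 9 rose and 7 fell (median 0.05, or −0.22 after quantile normalization), with *Idh2* (−1.09) as the only change past 1. Both shares of called genes in oxidative phosphorylation lay below the 36.1% and 36.7% of all genes.

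Cholesterol synthesis and uptake rose in 21 of 25 genes, 15 of them by at least 1 (median 1.08). *Hmgcs1*, which acts early in the pathway, went from 11.92, 12.11, 12.05 and 11.95 to 13.12, 13.26, 13.20 and 13.15. *Hsd17b7* (1.99) and *Lss* (1.87), which act late in the pathway, rose most. Of the genes for efflux and oxysterols, *Ch25h*, which makes 25-hydroxycholesterol, rose by 1.66, *Nr1h3*, which encodes LXR alpha, by 1.58 and *Abca1* by 0.69, whereas *Cyp27a1*, which makes 27-hydroxycholesterol, fell by −2.55. Antioxidant genes rose for the cystine transporter *Slc7a11* (3.00), *Sod2* (2.93) and *Hmox1* (2.14), and *Gpx1* fell by −1.40.

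Genes of the cell cycle fell almost without exception. All 32 S phase genes were lower, 23 by at least 1 (median −1.47), and 32 of 33 G2/M genes were lower, 27 by at least 1 (median −1.85). *Rrm2*, a ribonucleotide reductase subunit needed for DNA synthesis, was at 10.30, 10.57, 10.35 and 10.20 in untreated cells and at 7.88, 7.84, 7.62 and 7.63 at 9 hr (fall −2.62, standard error 0.07, limma adjusted p = 4.17e-10). *Top2a*, which untangles replicated chromosomes, went from 12.59, 12.87, 12.69 and 12.47 to 10.79, 10.95, 10.83 and 10.64. *Kif23*, a motor of cell division, went from 10.85, 10.94, 10.93 and 10.66 to 8.33, 8.28, 8.25 and 7.89. In each of these genes the 2 groups lay more than 1.5 apart. The exception was *Pttg1*, which encodes securin and rose by 0.96, and the smallest falls were those of *Bub3* (−0.13) and *E2f1* (−0.23). E2F letters were in 29.6% of the 27 promoters of S phase genes at hand and in none of the 30 promoters of G2/M genes. *Myc* fell from 9.57, 9.76, 9.87 and 9.78 to 8.37, 8.50, 8.49 and 8.38, and of the D cyclins *Ccnd2* rose by 2.62, *Ccnd3* rose by 1.53 and *Ccnd1* fell by −0.61. In these bulk libraries fewer cells in cycle and less of these RNAs per cell cannot be told apart.

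Genes of the protein synthesis machinery changed little, and the ribosomal proteins mostly fell. Of 79 cytosolic ribosomal protein genes 59 were lower and 3 higher, none by 1 or more, with a median of −0.31. The lowest was *Rpl27a* at −0.83. Many of these genes have near-identical pseudogene copies, so their values are uncertain. Ribosome biogenesis factors split evenly, 14 higher and 13 lower of 45 (median 0.04), and of 31 translation factors 14 were higher and 8 lower (median 0.06, or −0.24 after quantile normalization), with *Eif4g2* (1.13) as the largest rise. In the unfolded protein and integrated stress response 21 of 27 genes rose, 2 of them by at least 1, and 2 fell, neither by as much as 1, and *Hspa5*, the chaperone BiP, rose by 0.80.

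Scavenger and uptake receptors went both ways, with 10 higher and 15 lower of 25. Beside *Marco*, the oxidized LDL receptor gene *Olr1* rose by 2.05, *Msr1* by 1.98 and the mycobacterial glycolipid receptor gene *Clec4e* by 3.41. *Mrc1*, the mannose receptor, fell from 13.46, 13.32, 13.25 and 13.34 to 11.96, 11.80, 11.84 and 11.89, and *Trem2*, a lipid-sensing receptor, from 14.59, 14.46, 14.71 and 14.61 to 13.52, 13.03, 13.18 and 13.17. *Gas6*, a bridge for the uptake of dying cells, fell by −1.80, *Cd163* by −1.51 and *Itgb3* by −2.19. Complement and Fc receptors rose more than they fell (12 and 5 of 18), with *Fcgr2b* at 3.10, *Fcgr4* at 2.64, *C3* at 2.40 and *Fcgr1* at 1.95. Lysosomal genes were lower in 19 and higher in 11 of 36, the acid lipase gene *Lipa* at −1.09 and the cathepsin gene *Ctsc* at 1.92, and the osteoclast-associated proton pump subunit *Atp6v0d2* fell by −1.85.

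Transcription factors of macrophages and of the immediate early response also split. *Cebpb* and *Cebpd* rose by 1.80 and 1.35, and *Batf* by 3.13. *Pparg*, a regulator of lipid handling in macrophages, fell from 10.16, 10.25, 10.31 and 10.32 to 8.14, 8.00, 8.22 and 8.16. *Klf4* (−1.72), *Egr2* (−1.50), *Klf2* (−1.32), *Cebpa* (−1.27) and *Bhlhe40* (−1.23) fell as well. *Spi1*, the master factor of the lineage, rose by 0.49, but turned to −0.08 (not called) after quantile normalization. Of 23 AP-1, EGR and immediate early genes 14 rose and 6 fell, 6 and 4 of them by at least 1. Smaller changes in that list were those of 3 of its best-known members: *Fos* changed by −0.25, *Egr1* by 0.37 and *Jun* by 0.17, each past the test, and *Jun* turned to −0.07 (not called) after quantile normalization.

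Genes of cell survival and inflammasomes rose more often than they fell. *Bcl2a1a*, *Bcl2a1d* and *Bcl2a1b* rose by 3.86, 2.60 and 1.88, and since these paralogs are nearly identical the split of reads among them is uncertain. *Cflar*, an inhibitor of caspase-8, rose by 1.76 and *Birc3* by 1.16, while *Bmf*, a pro-apoptotic relative of BCL2, fell by −1.69. Of 16 inflammasome genes 13 rose, the pyrin gene *Mefv* by 2.16, *Casp4* by 1.51, *Casp1* by 1.36 and *Nlrp3* by 1.29, and *Nlrp1b* fell by −1.88.

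Transcripts usually linked to other cells moved as well. *Ighm*, the immunoglobulin mu chain, fell from 10.90, 10.90, 11.01 and 11.13 to 8.15, 7.94, 7.88 and 8.11, and *Cd4* from 7.01, 6.61, 6.91 and 6.50 to 5.32, 5.70, 6.02 and 5.61. The summed level of the 7 B cell markers was 1968.6 to 2299.4 in untreated cells and 264.5 to 319.1 at 9 hr, with *Ighm* and *Cd79b* as the only members that passed the filter. For the 8 T cell markers the sums were 3255.9 to 3749.1 and 1889.8 to 2331.4, with *Cd4*, *Cd5*, *Il7r* and *Lck* past the filter. Of these 4, 3 fell and 1 rose, by 1.15. The 13 neutrophil markers summed to 505.4 to 643.0 and 566.6 to 676.6, with *Camp* at 2.22, *S100a8* at 1.74 and *S100a9* not called. Of the 5 tested, 2 rose, 1 fell and 2 were not called. In the osteoclast list 4 of 7 genes fell and 2 rose (sums 4987.9 to 5708.2 and 2660.6 to 2959.3), and *Pdgfrb* and *Dcn* of the fibroblast list rose by 3.07 and 2.47 (sums 57.3 to 68.1 and 348.7 to 533.6) with collagen genes under the filter. The log2 of the summed level was 5.60 to 5.78 and 6.27 to 6.34 for the dendritic cell list, 4.48 to 4.79 and 5.56 to 5.77 for the NK list, 4.34 to 4.67 and 3.32 to 3.62 for the erythroid list, with *Hba-a1* at 0, and 3.13 to 3.37 and 2.99 to 3.40 for the mast cell list, with *Mcpt4* and *Tpsb2* at 0. The part of other cells in the changes described here was not tested.

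**Figure D3:**
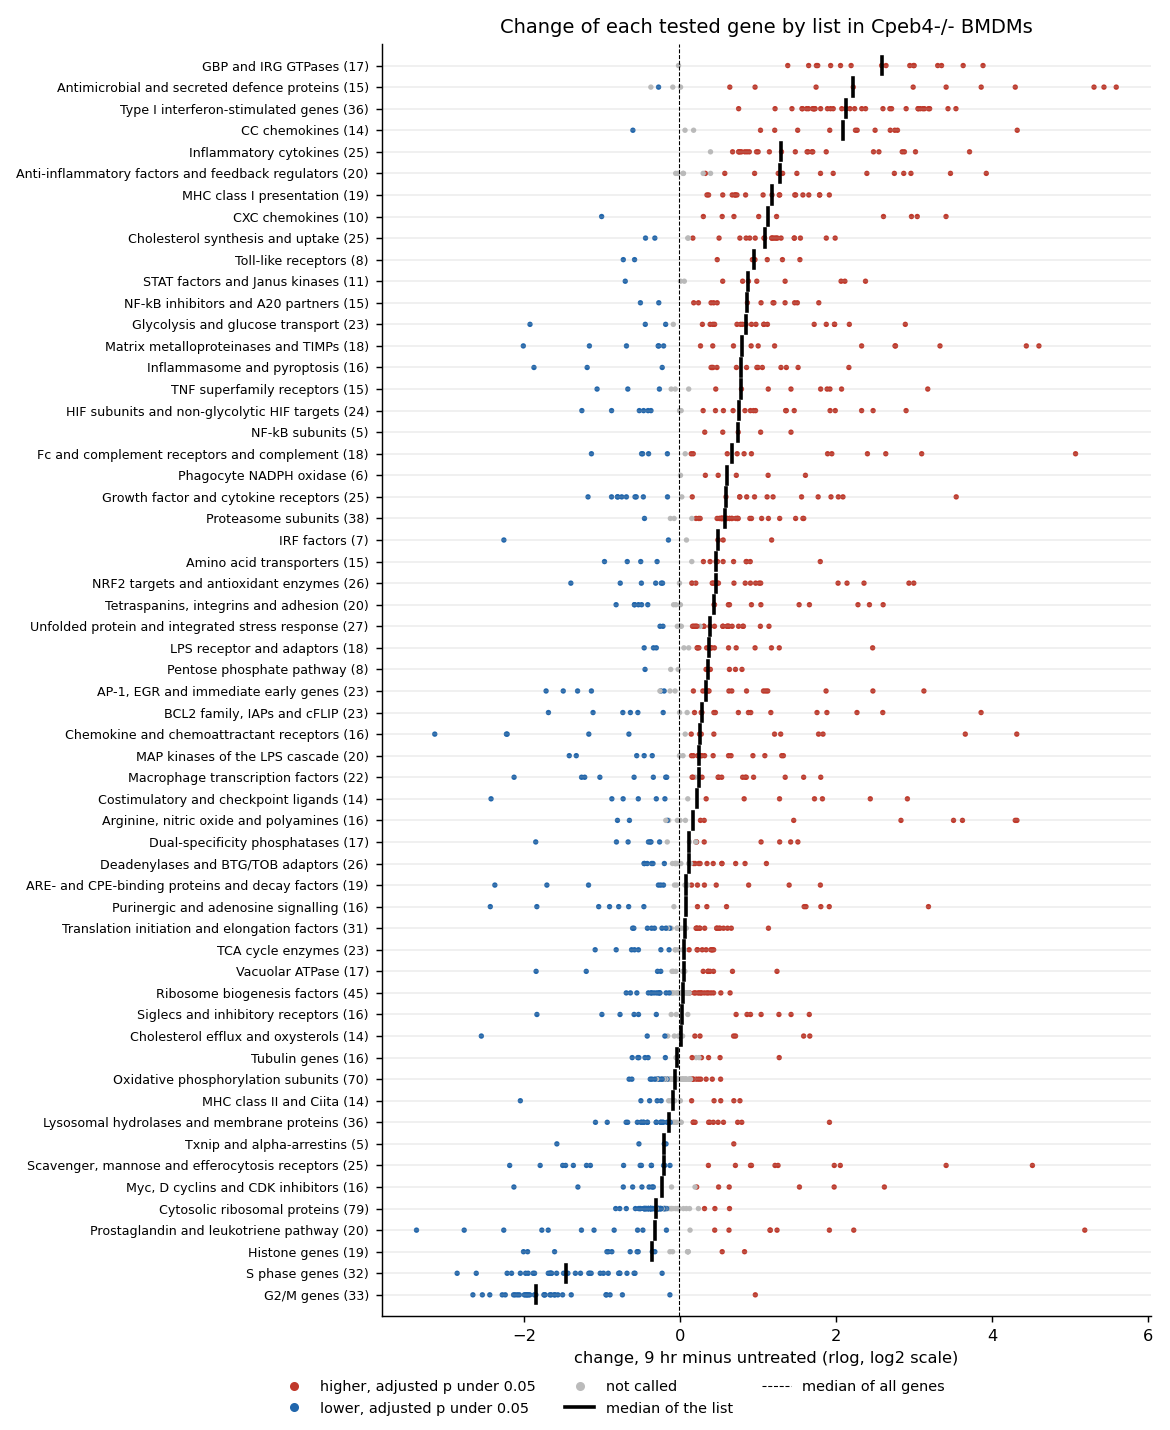
Change (9 hr minus untreated, rlog, x axis) of each tested gene in the lists of genes of a process, 1 row per list with the number tested in brackets. Red points rose and blue points fell at an adjusted p under 0.05, grey points were not called, black bars are list medians and the dashed line is the median of all genes (−0.01). The GBP and IRG GTPases (median 2.58) stand at the top and the S phase (−1.47) and G2/M genes (−1.85) at the bottom.

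Whether the net change was particular to the knockout was tested as the interaction of genotype and time over 16 libraries of 8 animals. The filter on low values was set on the knockout libraries alone. Genes expressed only in WT could therefore not enter the test, and the counts in each direction depend on that filter. At an adjusted p under 0.05 (limma, Benjamini-Hochberg), the change in *Cpeb4*-/- cells was more positive than in WT for 126 genes (0.961% of those tested) and more negative for 74 (0.564%). The median size of the difference among these 200 genes was 0.499. Of the 200, 170 moved in the same direction in both genotypes, 62 of them further and 108 less far in the knockout, and 30 had opposite signs. WT and knockout animals shared no cage in the labels, so cage and genotype cannot be told apart. The count rested on single animals: it was 343 without animal 2, 63 without animal 3, 47 without animal 62, 64 without WT animal 25, 109 without WT animal 69 and 117 without WT animal 88. Within batch 1 it was 100 and within batch 2 it was 1.

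**Figure D4:**
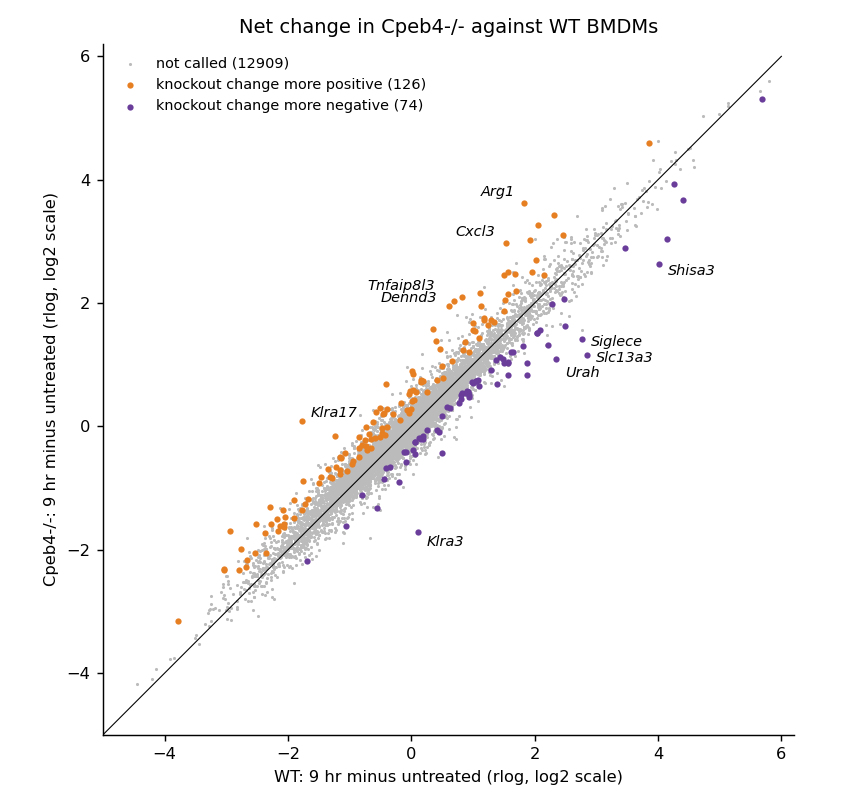
Net change in *Cpeb4*-/- (y axis) against net change in WT (x axis), both 9 hr minus untreated in rlog, for the 13109 genes tested. Orange points (126) have a more positive and purple points (74) a more negative change in the knockout at an adjusted p under 0.05, and the line marks equal change. Most genes lie along the line, and the labelled genes are the 5 largest differences in each direction.

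Among the genes with a more positive change in the knockout, *Arg1*, the arginase of alternatively activated macrophages, was at 4.11, 3.42, 3.37 and 4.20 in untreated and at 7.42, 7.70, 6.94 and 7.51 in 9 hr cells of animals 2, 3, 55 and 62. In WT it was at 3.80 to 4.02 and 5.53 to 5.98, so the 9 hr values of the genotypes did not overlap, and the difference between the changes was 1.79 (standard error 0.22, limma adjusted p = 0.00401). *Cxcl3*, a neutrophil-attracting chemokine, went from 7.59, 7.63, 7.56 and 7.52 to 10.47, 11.21, 10.38 and 10.11 in the knockout and from 7.46 to 7.50 to 8.66 to 9.72 in WT (difference 1.43, limma adjusted p = 0.0123). *Dennd3*, an activator of a Rab protein, rose by 1.96 in the knockout beside a change of 0.61 in WT, and *Tnfaip8l3*, a lipid transfer protein, by 2.04 beside 0.70. Apart from the fits within 1 batch, the call of a difference was lost under 4 alternatives for *Dennd3*, 6 for *Tnfaip8l3*, 2 for *Cxcl3* and 1 for *Arg1*. Untreated values of *Dennd3* were 4.49 to 5.13 in the knockout and 3.56 to 4.71 in WT. The mean of *Tnfaip8l3* in untreated knockout cells was 2.23, near the filter on low values, so its change is uncertain. *Klra17*, of the Ly49 receptor family, was not called in the knockout (0.09), at 2.01 to 2.76 in untreated and 2.44 to 2.75 in 9 hr cells. Its change in WT was −1.77, from values of 4.55 to 5.27 in untreated cells to values of 2.93 to 3.10 at 9 hr. The untreated knockout values of *Klra17* were already lower, and its mean over the 8 knockout libraries, 2.53, lay near the filter on low values. A fall as large as in WT could not have been read there.

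Among the genes with a more negative change, *Slc13a3*, a transporter of dicarboxylates, was at 5.07, 5.16, 5.03 and 4.96 in untreated knockout cells and at 6.09, 6.17, 6.35 and 6.24 at 9 hr. In WT it went from 6.84 to 7.30 to 9.64 to 10.32, so it was lower in the knockout at both times and rose less (difference −1.69, standard error 0.13, limma adjusted p = 0.000132). *Siglece*, an inhibitory receptor for sialic acids, showed the same order, from 5.55, 5.31, 5.52 and 5.40 to 6.91, 6.83, 6.92 and 6.81 in the knockout and from 7.33 to 8.03 to 10.02 to 10.80 in WT (difference −1.34, limma adjusted p = 5.81e-05). *Shisa3*, an adaptor that restrains Wnt and FGF receptors, reached 7.97 to 8.58 at 9 hr in the knockout against 9.27 to 10.03 in WT. Its untreated values, 5.72 to 5.78 and 5.72 to 5.73, were near-constant, of the kind that rlog gives to very few reads. Whether the genotypes started alike cannot be read from them. *Urah*, an enzyme of uric acid breakdown, rose by 1.10 in the knockout beside a change of 2.34 in WT, and this call was lost under 2 alternatives. The mean of *Urah* in untreated knockout cells was 2.44, near the filter on low values, so its change is uncertain. *Klra3*, also of the Ly49 family, fell by −1.71 in the knockout, from 3.87 to 4.20 to 1.97 to 2.71, and was between 1.22 and 1.37 in WT. All WT values of *Klra3* lay below the filter on low values, which was set on the knockout libraries alone, so *Klra3* entered the test only through the knockout. Ly49 genes are close copies of one another that differ between mouse strains, so the values of *Klra3* and *Klra17* are uncertain.

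**Figure D5:**
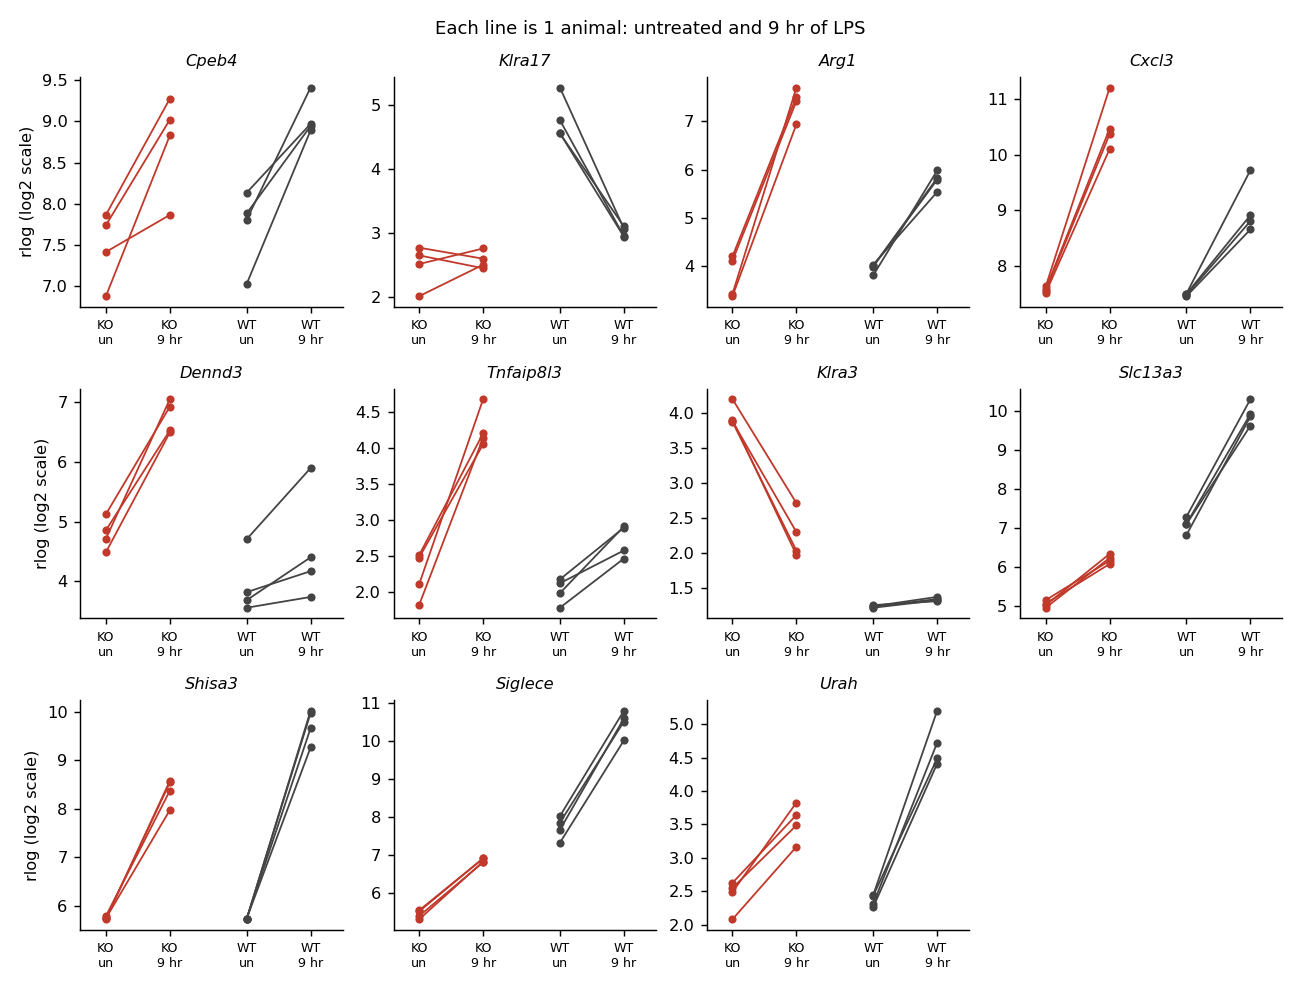
The rlog value (y axis, log2 scale, a separate range per panel) of *Cpeb4* and of the 10 genes with the largest differences in net change, untreated and at 9 hr, with 1 line per animal (red, 4 *Cpeb4*-/-; grey, 4 WT). *Cpeb4* rises in both genotypes, *Slc13a3* and *Siglece* are lower in the knockout at both times, and untreated values of *Shisa3* are near-constant in both genotypes.

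Within the lists, the genes whose net change differed between genotypes were few. Over all genes tested the shares were 0.961% more positive and 0.564% more negative. The list of HIF subunits and other HIF targets had the most, 6 more positive and 1 more negative of 24, with a median change of 0.76 in the knockout and 0.36 in WT. Its members were *P4ha2*, which hydroxylates collagen (difference 0.89, standard error 0.14, limma adjusted p = 0.0123), *Mxi1*, an antagonist of MYC (0.88), *Egln3* (0.80), *Egln1* (0.48), *Pdk1*, which restrains pyruvate entry into mitochondria (0.38), and *Bnip3l* (0.34), against *Edn1* (−0.57). *P4ha2* went from 6.94, 6.40, 6.50 and 6.22 to 7.49, 7.38, 7.35 and 7.43 in the knockout. In glycolysis and glucose transport *Hk2* (0.42), *Pfkl* (0.38) and *Gpi1* (0.30) were more positive and *Slc2a6* (−0.31) and *Hk3* (−0.30) more negative of 23. Of the inflammatory cytokines *Il12a* (1.10) was more positive, and *Tnf* (−0.52), *Il19* (−0.86) and *Lta* (−1.05) were more negative. List medians also lay apart outside the HIF list. They were 1.30 in the knockout and 1.80 in WT for the inflammatory cytokines, and 0.36 and −0.05 for the pentose phosphate pathway. Chemokines with a less positive change were *Cxcl9* (−1.10), *Ccl3* (−0.54) and *Ccl4* (−0.53). Of the genes in this paragraph, *Egln1* was the only one called under every alternative that kept both batches, and *Egln3*, *Gpi1*, *Slc2a6*, *Il12a*, *Il19* and *Edn1* each lost the call under 10 or more of them.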

How the data were processed

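RNA was sequenced from poly(A)-selected libraries of WT and *Cpeb4*-/- BMDMs. Per the study's methods, the authors aligned reads to mm10 with STAR (2.3.0e in the submitters' processing notes), counted them per gene with featureCounts and transformed the counts with the rlog function of DESeq2. The deposited values are therefore log2 values, normalized over all libraries, and weak genes are shrunken toward their mean. Read counts were not used here and depth is unknown. All 40 columns of values carried sample names, and 0 further columns were left unused.

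Genes whose rlog values averaged log2 of 5 or more over the 8 knockout libraries were fitted with limma 3.58.1 in R 4.3.3 (eBayes with trend, animal as a fixed block), with Benjamini-Hochberg adjustment over all 13109 genes and calls at an adjusted p under 0.05. The difference in net change between genotypes was the interaction term over 16 libraries. Animal numbers come from the labels, and both libraries of a number come from the same animal. The deviations of same-numbered libraries from their group means correlated with r of 0.259, 0.47, 0.153 and 0.395 for animals 2, 3, 55 and 62, and animal 55 correlated more with another animal (0.448) than with itself. The labels describe the libraries of a group as separate animals.

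The comparison, its members and the gene lists were chosen with earlier results of these data known. Genes were named as the 12 largest rises and falls that did not overlap between groups (predicted genes, clones and pseudogenes left out), the 5 largest interactions in each direction, *Cpeb4*, and, for the lists, preset representatives and the 2 largest rises and falls. Further list members were added after their values had been seen. Promoters (250 bases before to 50 after the start) came from RefSeq, build GRCm38.p6, and were searched on both strands, with overlapping motifs counted for each. Alternatives were the fit without the block or with a random block, eBayes without trend or robust, other filters, quantile normalization, median centring, each animal left out, each batch alone and a limma test against a difference of 1. The fits were tested on simulated data. A few members of the lists are not reported here by name.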

Additional observations from a re-analysis of the deposited data

Results flagged for a closer look

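Single libraries stood apart from the other 3 of their group in 27 of 522 groups of 4 values, by Dixon's test at its 95% critical value. Chance flags about 1 in 20 groups, and the flags fell on animal 2 in 6 cases, on animal 3 in 10, on animal 55 in 6 and on animal 62 in 5. All values here are rlog. In untreated cells, animal 3 was the highest for *Tnf* (12.74), *Il1b* (12.49), *Cxcl2* (11.94), *Socs3* (11.06), *Ptgs2* (10.89), *Tlr4* (10.62) and *Cxcl1* (9.68), and it also stood apart for *Vcam1* (7.91). Untreated cells of animal 55 stood apart for *Cd14* (14.97), *Nfkbia* (13.53), *E2f1* (10.84) and *Slc16a3* (10.74), those of animal 2 for *Arid5a* (9.16), *Met* (6.29) and *Bcl2a1a* (3.56), and those of animal 62 for *Nos2* (8.14) and *Klra3* (4.20). At 9 hr, animal 2 stood apart for *Eif4g2* (15.65), *Rpl27a* (9.16) and *Sox4* (3.60), animal 3 for *Csf3* (8.29) and *Tnfrsf9* (7.84), animal 55 for *Cxcl9* (9.95) and *Itgb3* (4.83), and animal 62 for *Hk3* (14.12), *Tnf* (13.61) and *Casp4* (11.83).

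The net change differed between genotypes for 38 of the 261 named genes (limma interaction, Benjamini-Hochberg adjusted p under 0.05). Over all 13109 genes tested it differed for 200. Some named genes were picked for having the largest interactions, and further list members were named after their values had been seen. The count of 38 is therefore partly fixed by the choice of genes and cannot show enrichment among them. *Klra3* entered the test only through its knockout values, since its WT values lay below the filter on low values. Knockout minus WT differences that were positive were those of *Klra17* (1.86), *Arg1* (1.79), *Cxcl3* (1.43), *Dennd3* (1.35), *Tnfaip8l3* (1.34), *Il12a* (1.10), *P4ha2* (0.89), *Mxi1* (0.88), *Egln3* (0.80), *Serpinb2* (0.75), *Cd163* (0.66), *Cxcr4* (0.63), *Egln1* (0.48), *Bmf* (0.47), *Cebpa* (0.46), *Hk2* (0.42), *Pdk1* (0.38), *Pfkl* (0.38), *Bnip3l* (0.34) and *Gpi1* (0.30). Negative differences were those of *Klra3* (−1.81), *Slc13a3* (−1.69), *Shisa3* (−1.39), *Siglece* (−1.34), *Urah* (−1.25), *Cxcl9* (−1.10), *Lta* (−1.05), *Il19* (−0.86), *Edn1* (−0.57), *Ccl3* (−0.54), *Ccl4* (−0.53), *Tnf* (−0.52), *Traf1* (−0.41), *Lcn2* (−0.38), *Il1rn* (−0.33), *Eif4g2* (−0.31), *Slc2a6* (−0.31) and *Hk3* (−0.30).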

How the results depend on the processing

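The number of genes called for the net change, 9533, was 9092 with no replicate block and between 6764 and 10286 over all alternatives, and 8451 to 10237 with 1 animal left out. With a difference of at least 1 it was 2389, also with no replicate block, and between 1666 and 2523 over all alternatives, or 2364 to 2484 with 1 animal left out. The 200 genes whose net change differed between genotypes were less stable. Their number was 115 with no replicate block, 373 with the replicate block as a random effect, 97 with eBayes without trend, 48 with no filter, 100 in batch 1 animals only and 1 in batch 2 animals only, and it ran from 47 to 343 with 1 animal left out. The cause was not tested. Under quantile normalization the sign turned for *Spi1* (−0.078), *Jun* (−0.072), *Rela* (−0.066), *Cpeb2* (−0.059) and *Gbp8* (0.158), and *Gpi1* and *Cyba* turned to −0.276 and −0.536 and were called lower. The medians of 15 of 68 lists turned sign under it as well, none of them larger than 0.493 in size as reported. Other turns of sign were in genes not called. With 1 animal left out, *Gbp8* ran from −0.195 to 0.147, *Klra17* from −0.044 to 0.187, *Cyba* from −0.129 to 0.059, *Pdk1* from −0.038 to 0.029 and *S100a9* from −0.082 to 0.109. In batch 1 animals only *Gbp8* was at 0.189, *Cyba* at −0.112 and *Klra17* at −0.187, and in batch 2 animals only *Cpeb2* was at −0.033, *Pdk1* at 0.015 and *S100a9* at −0.023. Of the 261 named genes, 236 kept direction and call under every alternative. Of the 38 named genes whose net change differed between genotypes, 0 kept the call under every alternative and 5 under all but the fits within 1 batch, and 273 of 677 values lost it. The rlog scale and the unknown depth limit what can be said of weak genes.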

Other observations

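Further lists described the surface and matrix of the *Cpeb4*-/- cells. Of 18 matrix metalloproteinases, plasminogen regulators and their inhibitors 12 rose and 6 fell, with *Mmp25* at 3.33 and *Timp1*, an inhibitor of these proteases, at 2.76 against *Plau*, the urokinase gene, at −2.01. Receptors of the TNF superfamily and their adaptors rose in 9 of 15 cases and fell in 3, *Tnfrsf9* (4-1BB) by 3.18, *Traf1* by 2.07 and the death receptor gene *Fas* by 1.88. Among 16 genes of purinergic and adenosine signalling 8 rose and 7 fell. The adenosine receptor genes *Adora2a* and *Adora2b* rose by 3.19 and 1.91, and *P2ry1*, a receptor for ADP, and *Entpd1*, which breaks down extracellular ATP, fell by −2.44 and −1.84.

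Growth factor and cytokine receptors were higher in 14 and lower in 10 of 25, with *Met*, the receptor of hepatocyte growth factor, at 3.54 and *Igf1r* at −1.18. The adhesion genes *Itgal*, *Pecam1* and *Vcam1* rose by 2.60, 2.43 and 2.28, in a list with 11 higher and 6 lower of 20. All subunits of the phagocyte NADPH oxidase but *Cyba* rose (5 of 6), *Cybb* by 1.61, and *Cyba* (not called) turned to −0.54 and was called lower after quantile normalization. Histone genes were lower in 11 and higher in 2 of 19, with *H2afx* at −1.61.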
